A study of Mus musculus with 12 samples.

Results

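The 10 genes described here encode enzymes of glycolysis: Hk2, Gpi1, Pfkl, Aldoa, Tpi1, Pgk1, Pgam1, Eno1, Pkm and Ldha. They were taken by symbol from a table of counts per gene, in which all 10 were found among 24421 symbols, and all 10 were among the 12981 genes with enough counts to be tested. The libraries came from cells sorted from the tibialis anterior, a muscle of the lower leg, 5 days after its fibres had been destroyed by notexin, a snake venom toxin. The sort kept living CD45+ CD11B+ cells and removed LY6G+ and SIGLECF+ cells (neutrophils and eosinophils), and the labels call what remained macrophages. All mice carried at least 1 null allele of Ifngr1, which encodes the chain of the interferon gamma receptor that binds the ligand: wt/null mice kept a working allele and null/null mice had none, and no wt/wt mice were among the groups. From the injury on, mice of each genotype were injected daily into the peritoneum with an antibody that neutralizes TNF or with an isotype antibody. This gave 4 groups of 3 libraries each, named below by genotype and antibody, such as wt/null isotype. The null allele was not stated to be limited to myeloid cells and the antibody was given to the whole animal, so either could reach other cells of the muscle. The labels do not say that the libraries of a group came from separate mice, and p-values measure the spread between these libraries, which may be technical.

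Glycolysis splits glucose into pyruvate in the cytosol and yields ATP without oxygen; lactate dehydrogenase then turns pyruvate into lactate and restores the NAD+ that the pathway needs. Macrophages stimulated with inflammatory signals, IFN-γ and TNF among them, are known from culture work to take up more glucose and to make more lactate, in part through the transcription factor HIF-1, which binds a short core sequence, ACGTG, in the promoters of many glycolytic genes. Several of these enzymes exist as isoenzymes made from separate genes, and many have processed pseudogenes, copies of the messenger RNA inserted elsewhere in the genome.

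Each library held 23.2 to 29.9 M counts (M, mega), and the 10 enzymes together took 0.243% to 0.340% of them. Levels below are CPM, counts per M counts after TMM scaling. Ifngr1 stood at 226 to 251 CPM in the 6 wt/null libraries and at 83.3 to 119 CPM in the 6 null/null libraries, with no overlap; which part of the gene the null allele lacks is not given in the labels. The 10 macrophage markers summed to 24060 to 30700 CPM and none was at 0. Of 7 erythroid markers, 5 or 6 were at 0 in each library and they summed to 0.0693 to 0.732 CPM, and the 12 skeletal muscle markers summed to 90.8 to 170 CPM. A pair of anti-TNF libraries, wt/null replicate 2 and null/null replicate 1, stood apart from the other 10. In them the 10 dendritic cell markers summed to 506 and 453 CPM, against 132 to 194 CPM in the other 10, and the 6 fibroblast markers to 463 and 329 CPM, against 695 to 1755 CPM. In these sorted bulk samples, fewer cells of a type and less RNA per cell cannot be told apart.

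The enzymes' promoters are shown first for matches to the HIF-1 core, and their copies for how far their reads can be told apart. The windows are the 250 bases before a RefSeq transcription start (GRCm38.p6, the same build as the mm10 of the labels), read in the direction of the gene. They are given as examples for 3 enzymes that hold the HIF-1 core and differed in the libraries that stood apart. Hk2 was higher there, and Aldoa and Pgk1 were lower. Pgam1 and Pkm also meet both conditions and are not shown. Ldha, with 5 matches in a window, overlapped the other libraries. No link between the motif and the level was tested. Capitals mark ACGTG on either strand, which reads CACGT where the match is on the other strand. The windows are Hk2 at chr6:82774455-82774704 on the minus strand, Aldoa at chr7:126799255-126799504 on the minus strand and Pgk1 at chrX:106186850-106187099 on the plus strand.
Hk2: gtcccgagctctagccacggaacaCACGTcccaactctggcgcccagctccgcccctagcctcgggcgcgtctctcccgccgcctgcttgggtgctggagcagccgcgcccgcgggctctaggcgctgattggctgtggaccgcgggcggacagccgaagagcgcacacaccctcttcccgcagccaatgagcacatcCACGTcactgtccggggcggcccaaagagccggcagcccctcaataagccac
Aldoa: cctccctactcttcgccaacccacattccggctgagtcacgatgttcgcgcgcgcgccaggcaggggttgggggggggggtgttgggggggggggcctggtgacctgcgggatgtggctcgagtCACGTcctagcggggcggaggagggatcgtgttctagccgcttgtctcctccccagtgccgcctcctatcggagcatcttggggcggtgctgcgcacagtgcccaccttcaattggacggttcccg
Pgk1: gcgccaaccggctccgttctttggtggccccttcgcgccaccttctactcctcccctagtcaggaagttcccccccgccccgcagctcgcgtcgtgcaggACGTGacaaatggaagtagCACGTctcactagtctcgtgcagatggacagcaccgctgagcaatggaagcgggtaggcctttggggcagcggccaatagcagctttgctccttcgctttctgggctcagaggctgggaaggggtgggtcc

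The Hk2 window held 2 matches, the Pgk1 window 2 and the Aldoa window 1. Across the 16 start sites that RefSeq gives for the 10 enzymes, 7 windows held ACGTG. The Aldoa windows among these 7 overlap and hold the same match. Of the 10 genes, 6 had the motif in at least 1 window: Hk2, Aldoa, Pgk1, Pgam1, Pkm and Ldha. For Pgam1, Pkm and Ldha, the bases just after those starts did not occur unbroken in any GENCODE M21 transcript of the gene. The other windows of Pkm and Ldha held no ACGTG. Gpi1, Pfkl, Tpi1 and Eno1 had no match in these windows. Of 32851 windows of the same length over all genes, 16.6% held the motif. That share is per window and cannot be set beside the count of genes, as some genes have more than 1 window. Where the palindromic form CACGTG occurs it counts on both strands. A match is a string of letters and does not show that a factor binds there.

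The copies matter for counting. In each enzyme's main transcript (GENCODE M21), stretches of 50 bases that also occur, base for base, in a transcript of another gene made up 0% for Hk2, 0.0543% for Pfkl, 7.51% for Tpi1, 13.9% for Aldoa, 17.1% for Ldha, 25.3% for Gpi1, 34.4% for Pkm, 41.5% for Pgam1, 68.0% for Pgk1 and 72.2% for Eno1. Those other genes included 4 pseudogenes for Pgam1, 5 for Pgk1, 7 for Pkm, 8 for Eno1 and 14 for Ldha. The Pgk1 case is shown because the match is nearly complete. The pseudogene Pgk1-rs7 on chromosome 12 holds 1250 bases in a row of the 1251-base coding sequence of Pgk1, from base 2 on, and its first 60 shared bases follow, with one stretch of 50 in capitals.
Pgk1 coding bases 2 to 61: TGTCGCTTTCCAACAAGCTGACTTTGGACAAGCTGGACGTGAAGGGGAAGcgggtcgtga

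A read that lies wholly within such a stretch matches both genes equally, but a longer read or its mate may reach unshared bases. With stretches of 100 bases the shared part was 67.0% for Pgk1, 59.0% for Eno1 and 39.7% for Pgam1. For Pkm it was 9.82%, for Gpi1 7.4%, for Ldha 1.32%, for Tpi1 0.796%, and for Aldoa, Pfkl and Hk2 0%. By symbol, none of the genes sharing stretches with Pgk1, Pgam1, Pkm or Tpi1 was among the symbols counted. For Eno1, Aldoa and Ldha, 1 such gene each was counted, for Pfkl 19 and for Gpi1 93. The stretches shared by Pfkl were only 0.0543% of its transcript. How the counting treated reads with more than 1 possible origin is not stated in any source used, and the levels of Pgk1, Pgam1, Eno1 and, to a lesser degree, Pkm and Gpi1 are therefore uncertain, while comparisons of 1 gene between libraries share the same sequence. Aldoa overlaps Fam57b and Tpi1 overlaps Spsb2, and the strand setting of the counting is also not given.

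Per kilobase of main transcript, Aldoa and Pkm led the enzymes and Eno1 came last. Aldoa, which splits fructose bisphosphate, averaged 457 ± 75.9 CPM per kilobase (SD, n = 12), and Pkm, which makes pyruvate, 382 ± 43.9; their ranges over the 12 libraries overlapped. Ldha followed at 220 ± 21.9, and its range of 189 to 250 lay below that of Pkm and above that of Gpi1. Gpi1 at 159 ± 12.1 and Tpi1 at 156 ± 10.8 could not be put in order. Pgk1 at 40.8 ± 6.32 lay below Tpi1 in every library. Its range met that of Pgam1, at 26.1 ± 3.74, and the range of Pgam1 met that of Pfkl, at 17.7 ± 1.76. Hk2 at 11.3 ± 1.33 and Eno1 at 0.984 ± 0.207 each lay below the enzyme before it without overlap. With the whole count divided by the kilobases of unshared stretches only, Pgk1 stood at 131 and Eno1 at 3.63. On that scale Pkm (594) passed Aldoa (548), and Eno1 remained last. Reads were not counted within those stretches alone, so the scale assumes that no shared read was counted, which is not known. Over the merged exons of all transcripts the order of Gpi1 and Tpi1 turned, at 71.2 and 91.1 CPM per kilobase, and so did that of Hk2 and Pfkl, at 10.4 and 10.0.

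The isoenzymes were compared on the same scale, per kilobase of main transcript. Hexokinase was read from Hk3, the myeloid form, at 36.8 ± 5.16 CPM per kilobase, then Hk1 at 21.0 ± 1.97 and Hk2 at 11.3 ± 1.33; the ranges of these 3 genes did not overlap. Over merged exons the order of Hk1 and Hk2 turned, at 9.5 (range 7.81 to 11.1) and 10.4 (8.43 to 12.7), and their ranges overlapped. Phosphofructokinase came from Pfkp at 20.2 ± 2.60 and Pfkl at 17.7 ± 1.76, with overlapping ranges, and Pfkm, the muscle form, stood at 5.72 ± 0.449. Over merged exons Pfkl, at 10.0 (8.74 to 12.5), lay above Pfkp, at 6.24 (4.41 to 7.22), without overlap. Aldoc stood at 3.03 ± 1.10 against the 457 of Aldoa, and Ldhb, the heart-type subunit, at 27.6 ± 3.46 against the 220 of Ldha. Pgam2, the muscle mutase, stood at 2.19 ± 0.682 against the 26.1 of Pgam1. Pklr, Pgk2, Ldhc and Gapdhs, forms of liver or testis, had 0 counts in every library. For enolase, Eno3, the muscle form, at 11.4 ± 2.42 and Eno2, the neuronal form, at 3.11 ± 0.711 stood above Eno1 at 0.984 ± 0.207, the form found in most tissues. With the whole count divided by unshared stretches only, the order of Eno1 and Eno2 turned, at 3.63 and 3.17, with Eno3 at 11.7. Eno1 shared 72.2% of its 50-base stretches with other genes, chiefly the protein-coding copy Eno1b, whereas Eno3 shared 0% and Eno2 0.255%. Eno1b was itself counted at 0.236 ± 0.0969 CPM per kilobase of main transcript. The part of that sharing in the level of Eno1 was not tested.

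**Figure D1:**
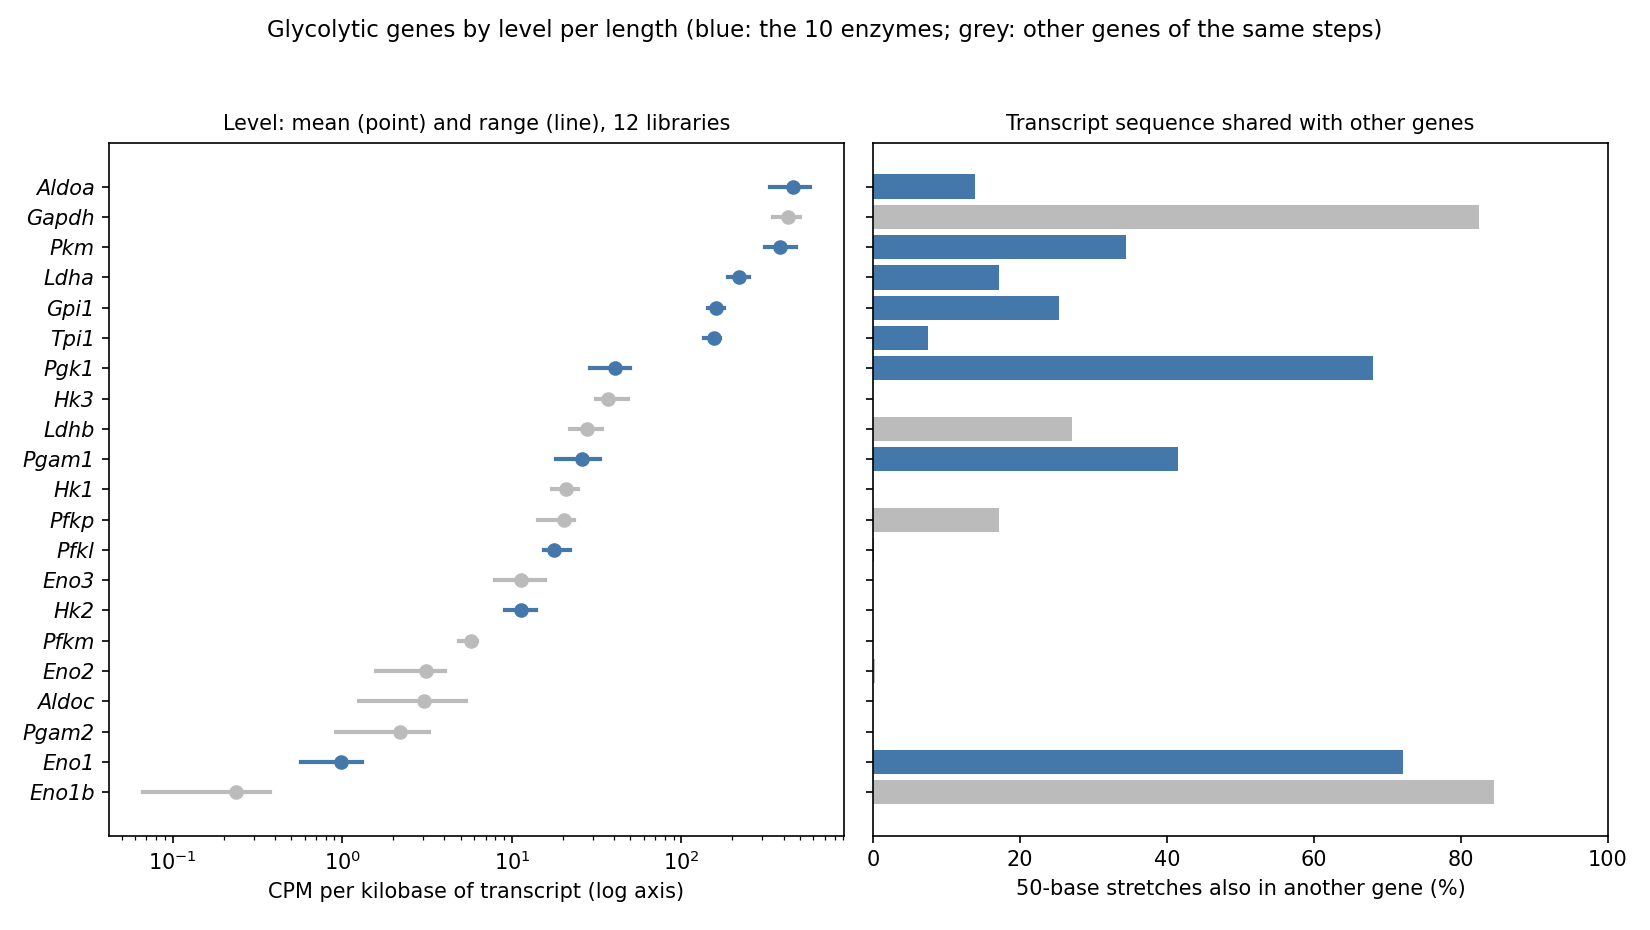
Level per kilobase of main transcript in CPM (left, log axis, mean as a point and range over 12 libraries as a line) and the share of 50-base stretches that also occur in another gene (right, percent), for the 10 enzymes in blue and other genes of the same steps in grey. Aldoa, Pkm and Ldha stand near the top, and Eno1, with 72.2% of its stretches shared, stands below Eno3 and Eno2 on this scale. With the whole count divided by unshared stretches only, Eno1 stands above Eno2.

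In the first steps, which trap glucose in the cell and prepare it for cleavage, the groups lay close together. Hk2 (chromosome 6, 82725025 to 82774454), which phosphorylates glucose at the outer mitochondrial membrane, had 57.5, 60.2 and 55.8 CPM in the wt/null isotype libraries and 62.7, 74.4 and 50.3 CPM in wt/null anti-TNF. In null/null it had 56.9, 65.7 and 64.6 CPM under isotype and 75.9, 63.2 and 60.2 CPM under anti-TNF. Its 2 highest values belonged to the libraries that stood apart, and the groups overlapped. Gpi1 (chromosome 7, 34201327 to 34230336), which turns glucose 6-phosphate into fructose 6-phosphate, had 434, 458 and 434 CPM in wt/null isotype and 466, 507 and 512 CPM in wt/null anti-TNF. In null/null it had 423, 447 and 516 CPM under isotype and 435, 464 and 416 CPM under anti-TNF. The 3 wt/null anti-TNF libraries lay above the 3 wt/null isotype libraries and above the 3 null/null anti-TNF libraries, while null/null anti-TNF overlapped null/null isotype. Pfkl (chromosome 10, 77986947 to 78009807), a subunit of the phosphofructokinase that commits sugar to the pathway, ran from 57.6 to 82.4 CPM. Its highest value was that of null/null isotype replicate 3, and the groups overlapped.

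The middle steps cleave the sugar and recover the first ATP. Aldoa (chromosome 7, 126795234 to 126800994) had 666, 692 and 768 CPM in wt/null isotype and 593, 512 and 868 CPM in wt/null anti-TNF. In null/null it had 690.2, 725 and 858 CPM under isotype and 504, 680.4 and 723 CPM under anti-TNF. The lowest 2 values came from the libraries that stood apart, and the highest came from wt/null anti-TNF replicate 3, a library of the same group as one of them. Tpi1 (chromosome 6, 124810586 to 124814158), which interconverts the triose phosphates, was among the steadiest, with 217 to 274 CPM over all 12 libraries. Its null/null isotype libraries, at 261, 265 and 274 CPM, lay above the null/null anti-TNF libraries, at 238, 254 and 236 CPM. Pgk1 (chromosome X, 106187100 to 106203699), which makes ATP from bisphosphoglycerate, had 74.4, 73.7 and 90.5 CPM in wt/null isotype and 64.4, 52.9 and 86.5 CPM in wt/null anti-TNF. In null/null it had 78.5, 75.7 and 83.8 CPM under isotype and 58.1, 70.4 and 84.8 CPM under anti-TNF. As for Aldoa, its lowest 2 values were those of the libraries that stood apart, and the groups overlapped.

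The last steps make pyruvate and lactate. Pgam1 (chromosome 19, 41911871 to 41918665), which moves the phosphate of phosphoglycerate, had 49.1, 45.3 and 47.6 CPM in wt/null isotype and 42.4, 32.2 and 52.5 CPM in wt/null anti-TNF. In null/null it had 49.8, 50.6 and 58.4 CPM under isotype and 40.1, 44.4 and 44.2 CPM under anti-TNF. The 3 null/null isotype libraries lay above both the null/null anti-TNF and the wt/null isotype libraries. Eno1 (chromosome 4, 150236708 to 150248879), which makes phosphoenolpyruvate, was counted 31 to 74 times per library, with 2.03, 2.65 and 2.56 CPM in wt/null isotype and 1.15, 2.05 and 1.75 CPM in wt/null anti-TNF. Its null/null libraries had 1.91, 1.66 and 2.28 CPM under isotype and 1.71, 1.87 and 2.32 CPM under anti-TNF, and counting error alone is wide at this depth. Pkm (chromosome 9, 59656576 to 59679372) had 924, 976 and 957 CPM in wt/null isotype and 806, 761 and 1016 CPM in wt/null anti-TNF. In null/null it had 939.7, 1009 and 1146 CPM under isotype and 801, 910.5 and 896 CPM under anti-TNF, with no overlap between these null/null groups. Ldha (chromosome 7, 46842274 to 46855627) ran from 334 to 441 CPM, with the lowest and the highest value both in wt/null anti-TNF, and the groups overlapped.

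**Figure D2:**
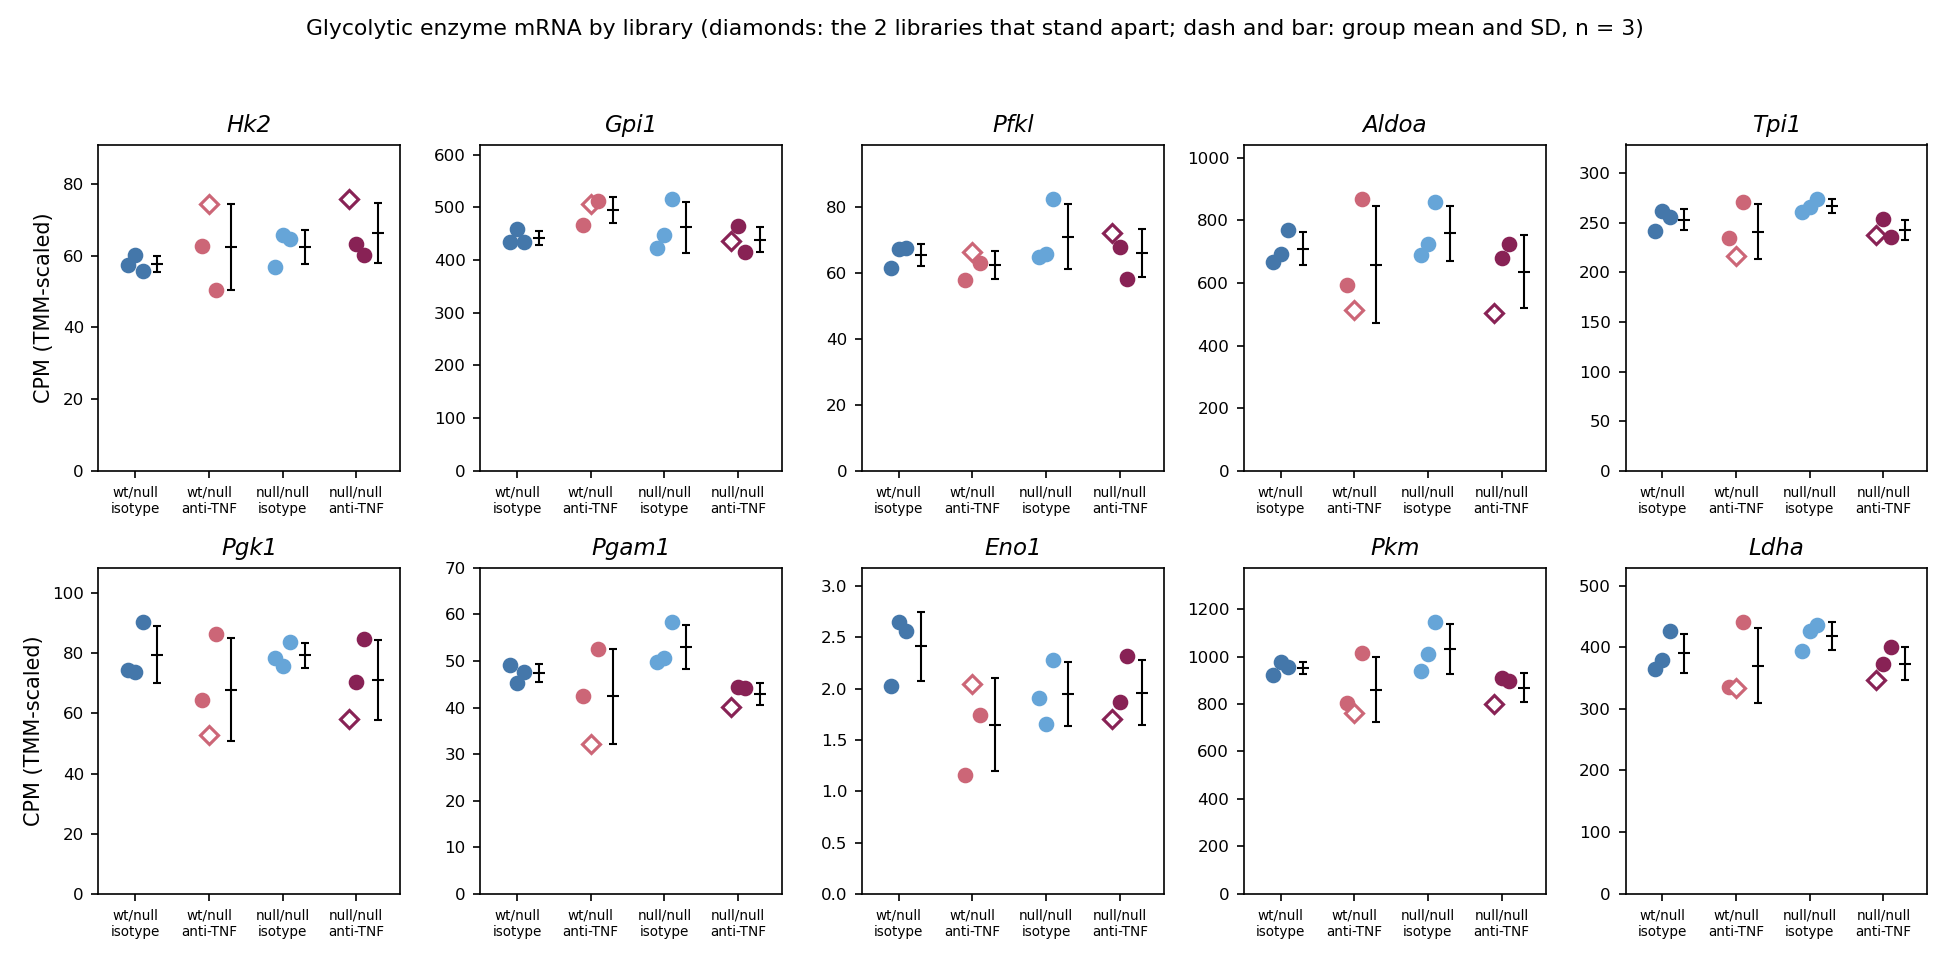
TMM-scaled CPM of each enzyme in the 12 libraries by group (each panel starts at 0; filled circles are libraries, open diamonds the 2 libraries that stand apart, and dash and bar the group mean and SD, n = 3). The diamonds are the lowest 2 points for Aldoa, Pgk1, Pgam1 and Pkm and the highest 2 for Hk2.

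The first question was whether neutralizing TNF changed the enzymes. In wt/null mice, anti-TNF against isotype, 0 of the 10 enzymes and 0% of the 12981 genes passed an adjusted p of 0.05 in edgeR's quasi-likelihood test. At an unadjusted p of 0.05, 0 enzymes and 581 genes passed; DESeq2 and limma voom also called 0 enzymes and 0 genes. Estimates were below 0 for 8 enzymes, with a median log2 fold change of -0.09, against 0.00 over all genes tested. The 3 smallest p-values belonged to Eno1, at -0.55 ± 0.27 (SE), Gpi1, at 0.16 ± 0.09, and Pgk1, at -0.23 ± 0.17, each with an edgeR adjusted p of 0.895. Between these groups 1 of 10 enzymes, Gpi1, had no overlap, as had 10.2% of all genes tested. Without the 2 libraries that stood apart the median was -0.02 and 7 estimates were below 0; Eno1 was then at -0.73 ± 0.30, with an edgeR adjusted p of 1.00. Without wt/null anti-TNF replicate 3, 4 enzymes and 7.43% of genes had an unadjusted p under 0.05 and the median was -0.25, with 0 genes called.

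In null/null mice the antibody again gave 0 called enzymes, against 0% of all genes, by edgeR; 0 enzymes and 452 genes had an unadjusted p under 0.05. DESeq2 and limma voom called 0 enzymes and 0 genes here too. At an unadjusted p of 0.05 they counted 1 and 2 enzymes, against 3.72% and 5.35% of all genes. Estimates were below 0 for 8 enzymes and the median was -0.15, against 0.01 over all genes. Pgam1 was at -0.30 ± 0.14, Pkm at -0.25 ± 0.12 and Tpi1 at -0.14 ± 0.09, each with an edgeR adjusted p of 0.947. These are the 3 of 10 enzymes whose null/null groups did not overlap; 8.41% of all genes had no overlap between them. Leaving out the libraries that stood apart gave a median of -0.11 with 9 estimates below 0, and Pgam1 at -0.26 ± 0.11.

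Averaged over both genotypes, the antibody called 0 enzymes and 0% of all genes by edgeR. Here 2 enzymes and 949 genes, or 7.31% of those tested, had an unadjusted p under 0.05: Pkm, at -0.20 ± 0.08, and Pgam1, at -0.23 ± 0.10, both with an edgeR adjusted p of 0.66. Tpi1 followed at -0.10 ± 0.06. DESeq2 called 14 genes, none of them among the 10 enzymes, and limma voom called 0 genes; both counted the same number of enzymes, 2, at the unadjusted threshold. Without the 2 libraries that stood apart both estimates were -0.13 and 0 enzymes reached that threshold. The count rests on single libraries: it was 6, with 12.4% of genes, without wt/null anti-TNF replicate 3, and 3, with 9.44%, without null/null anti-TNF replicate 3. It was 1 without wt/null isotype replicate 1 or 2 or null/null isotype replicate 2. On leaving out replicate 3 of either isotype group, replicate 1 of either anti-TNF group, or replicate 2 of wt/null anti-TNF, it was 0. The share of all genes with such a p moved as well, from 7.31% with all libraries to 12.4% and 9.44% in the runs that counted 6 and 3 enzymes. That share is not given here for the other runs and tools, so these counts are not read as a result about the enzymes. The difference between the antibody's effects in the 2 genotypes was tested as an interaction, which called 0 enzymes and 0% of all genes; 0 enzymes and 196 genes had an unadjusted p under 0.05, and DESeq2 and limma voom called 0 genes. The smallest p-values in that test were those of Gpi1, at -0.24 ± 0.13, Eno1, at 0.56 ± 0.38, and Pgam1, at -0.14 ± 0.20, with an edgeR adjusted p of 1.00 each.

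The second question was whether the enzymes depended on the IFN-γ receptor. Under isotype, null/null against wt/null, edgeR called 0 of the 10 enzymes and 1 gene, or 0.0077% of those tested. That gene was Ifngr1 itself, at -1.39 ± 0.12. No enzyme and 234 genes had an unadjusted p under 0.05, and DESeq2, with 2 genes called, and limma voom, with 1, called 0 enzymes. Estimates were above 0 for 8 enzymes, with a median of 0.10; without null/null isotype replicate 3 they were above 0 for 5 and below for 5, with a median of 0.02. Eno1 was at -0.30 ± 0.27, Pgam1 at 0.16 ± 0.14 and Pfkl at 0.12 ± 0.11, with an edgeR adjusted p of 1.00 for each; the Pfkl estimate rests on null/null isotype replicate 3 and was -0.00301 without it. Pgam1 was the 1 enzyme of 10 with no overlap between these groups, against 7.96% of all genes.

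Under anti-TNF the genotype called 0 enzymes and again Ifngr1 alone, 0.0077% of genes, and 0 enzymes and 257 genes had an unadjusted p under 0.05. DESeq2 called 2 genes and limma voom 1, with 0 enzymes among them. The median over the enzymes was 0.02 with 8 estimates above 0, and it turned to -0.01 with 4 above 0 without the libraries that stood apart. Gpi1 was at -0.17 ± 0.09, Eno1 at 0.25 ± 0.27 and Pfkl at 0.08 ± 0.11, each with an edgeR adjusted p of 1.00. Gpi1 was also the 1 enzyme of 10 without overlap, against 5.15% of all genes. Averaged over the antibodies the genotype called 0 enzymes and Ifngr1 alone, 0.0077% of genes; 0 enzymes and 319 genes had an unadjusted p under 0.05, and the enzymes' median was 0.05. DESeq2 called 4 genes there and limma voom 1, again with 0 enzymes. Comparisons that share a group share its libraries, so their estimates are not independent of each other.

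**Figure D3:**
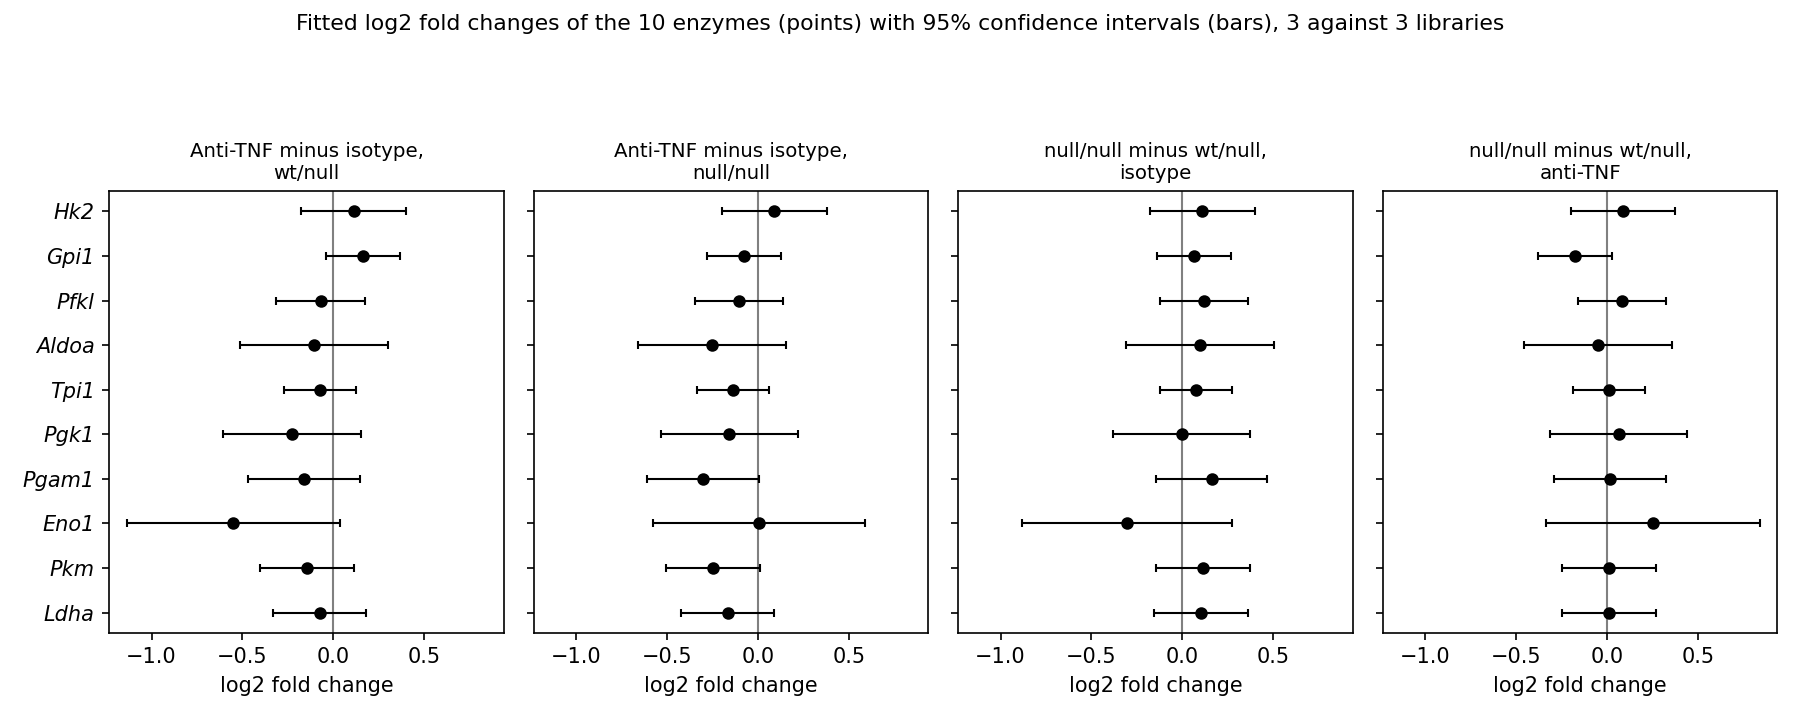
Fitted log2 fold changes of the 10 enzymes (points) with 95% confidence intervals (bars) for the antibody in each genotype and the genotype under each antibody, 3 against 3 libraries. Every interval includes 0, and those of Eno1 are the widest in each panel.

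The intervals show what size of change these libraries could hold. Across the enzymes other than Eno1, the 95% limits of the antibody's effect ran from -0.60 to 0.40 in wt/null and from -0.66 to 0.38 in null/null on the log2 scale. Those of the genotype's effect ran from -0.38 to 0.50 under isotype and from -0.45 to 0.44 under anti-TNF. A log2 change of 1 in either direction lay outside the interval of each of these 9 messages in each of these 4 comparisons. For Eno1 the limits were -1.13 and 0.03 for the antibody in wt/null and -0.33 and 0.84 for the genotype under anti-TNF. Between replicates of a group the enzymes' log2 CPM had a pooled SD of 0.0938 for Tpi1 and 0.0944 for Gpi1, of 0.260 for Aldoa and 0.242 for Pgk1.

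The enzymes did vary between libraries within groups, and this variation had a pattern. In the 2 anti-TNF libraries that stood apart, Aldoa, at 512 and 504 CPM, lay below the other 10 libraries, which ran from 593 to 868 CPM; the mean of the 2 was 0.700 times the mean of the other 10. By the same ratio, Pgk1 was at 0.709 times, Pgam1 at 0.747 times and Pkm at 0.815 times the mean of the other 10, and for each of them both libraries lay below the whole range. Hk2 went the other way, at 1.26 times that mean and above the whole range. Thus 4 of 10 enzymes lay below and 1 above, against 12.5% and 11.7% of all genes tested; these libraries were singled out from the data, so this is a description with no test. Among other genes of the pathway, Aldoc stood at 0.372 times the mean of the other 10, Gapdh at 0.800 times and the lactate and pyruvate carrier Slc16a1 at 0.644 times. Pfkfb3, whose product makes the activator of phosphofructokinase, stood at 1.40 times and Eno3 at 1.45 times. Of 22 genes for pyruvate entry and the citric acid cycle, 10 lay below and 0 above, among them Idh3a at 0.614 times and Mdh2 at 0.700 times. Markers of other cell types also stood apart in these libraries: 8 of 10 tested dendritic cell markers, 5 of 7 of T and NK cells and 3 of 6 of muscle stem cells lay above the other 10 libraries. Of 6 fibroblast markers, 3 lay below. The T, NK and stem cell genes that lay above were at 5.65 CPM or less. The T and NK list summed to 172 and 127 CPM, within the 98 to 202 CPM of the other 10. Of 10 macrophage markers 2 lay above and 1 below, as did 2 and 1 of 6 endothelial markers. Of 6 tested neutrophil and eosinophil markers 2 lay above, Csf3r and Retnlg, and the other tested ones overlapped. The list summed to 204 and 212 CPM against 123 to 163 CPM. Nearly all of this was Csf3r, at 196 and 200 CPM against 111 to 152 CPM. The part of these markers in the enzymes' values was not tested.

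**Figure D4:**
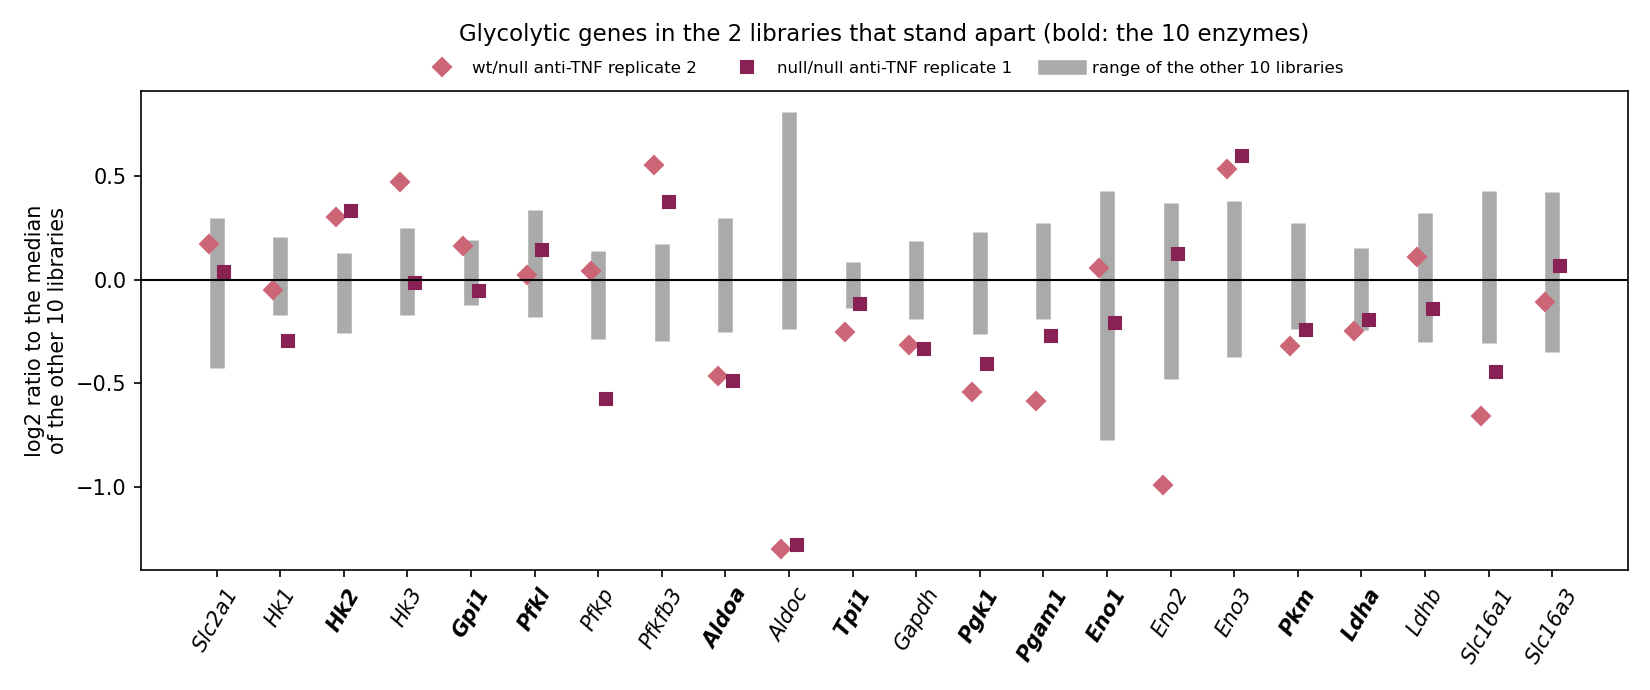
Level of glycolytic genes in the 2 libraries that stand apart (diamonds and squares) as the log2 ratio to the median of the other 10 libraries, with the range of those 10 as a grey bar and the 10 enzymes in bold. Aldoa, Pgk1, Pgam1 and Pkm lie below the bar in both libraries, Hk2 and Pfkfb3 lie above it, and Aldoc lies farthest below.

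The sample titles begin with 40 or 46, with 1 library of each group at 46; the labels do not say what the number means. Aldoa, Pgk1 and Ldha were higher in the 46 library than in both 40 libraries of the same group in 3 of 4 groups, and Hk2 was lower in 3 of 4. Pgk1 was lower and Hk2 higher in the remaining group. Gpi1, Pfkl, Tpi1 and Eno1 were each higher in 1 group and lower in 1, and Pgam1 and Pkm were higher in 1 and between the 40 libraries in 3. Thus 3 of 10 enzymes were higher and 1 lower in at least 3 groups, against 14.9% and 13.5% of all genes tested. In wt/null anti-TNF, for example, Aldoa had 868 CPM in the 46 library against 512 and 593 CPM. The skeletal muscle markers summed to 144 to 170 CPM in the 46 libraries and to 90.8 to 133 CPM in the 40 libraries, and their part in these values was not tested. Among the 40 libraries alone the median antibody effect on the enzymes was -0.22 in wt/null, -0.22 in null/null and -0.23 averaged, and 4 enzymes had an unadjusted p under 0.05 in the averaged comparison, with 0 called; 1466 genes, or 11.3% of the 13017 tested there, had such a p and 1 gene was called. Those 40 libraries include both libraries that stood apart. With the title number as a block, Pkm was at -0.20 ± 0.08 and Pgam1 at -0.24 ± 0.10 averaged over genotypes, with an edgeR adjusted p of 0.602 for both.

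The genes around the pathway were read from lists, and none of their members was called in any of the 7 comparisons by edgeR. Of 12 tested isoenzymes and other glycolytic enzymes, 1 had an unadjusted p under 0.05 for the genotype averaged over antibodies: Eno2, at 0.50 ± 0.15 with an edgeR adjusted p of 1.00. Of 8 tested glucose and lactate carriers, 1 did so for the averaged antibody effect: Slc16a1, at -0.36 ± 0.14 with an edgeR adjusted p of 0.66, and this gene was also low in the libraries that stood apart. The glucose carrier Slc2a1 was at 0.36 ± 0.15 for the genotype under isotype. Among 14 tested regulators, Hif1a, the regulated subunit of HIF-1, was at 0.31 ± 0.14 for the genotype under anti-TNF. It had 171 CPM in null/null anti-TNF replicate 1 and 115 CPM in wt/null anti-TNF replicate 2, which stood apart. The other anti-TNF libraries had 110 to 136 CPM. Pdk1, a kinase that shuts pyruvate dehydrogenase, was at -0.19 ± 0.09 for the averaged antibody effect. It had 27.92 and 28.75 CPM in the libraries that stood apart, against 31.5 to 35.9 CPM in the other anti-TNF libraries. Among 17 tested HIF targets outside glycolysis, Mxi1, a partner of Max that opposes Myc, was at 0.26 ± 0.08 for the averaged genotype effect, with an edgeR adjusted p of 1.00. The median of those 17 was 0.07 for the genotype and 0.02 for the antibody, both averaged. Of the 22 genes of pyruvate entry and the citric acid cycle, 17 estimates were below 0 for the averaged antibody effect, with a median of -0.08. Ogdh, a subunit of the oxoglutarate dehydrogenase complex, was at -0.22 ± 0.08 with an edgeR adjusted p of 0.66. It too was low in the libraries that stood apart, at 213 and 216 CPM against 228 to 304 CPM in the other 10. The 7 tested genes of the pentose phosphate pathway had medians of 0.01 for the antibody and -0.01 for the genotype.

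The genes most like the enzymes across the 12 libraries were found by Pearson's r with the mean standardized log2 CPM of the 10 enzymes, among 9652 genes whose mean log2 CPM was 2 or more. They included Eif6, a translation initiation factor, at 0.940, Rnpepl1 at 0.936, Flii, an actin-binding protein, at 0.933, and Acaa2, a thiolase of mitochondrial fatty acid oxidation, at 0.923. Over the 10 libraries left without those that stood apart, r for these 4 genes was 0.948, 0.959, 0.920 and 0.910. The libraries share depth and cell composition, and the values describe likeness in these 12 libraries. The mean of the enzymes was highest in null/null isotype replicate 3, which also gave the top value of Gpi1, Pfkl, Tpi1, Pgam1 and Pkm.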

How the data were processed

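Messenger RNA of sorted muscle myeloid cells was sequenced in 12 libraries, 3 in each of 4 groups. The deposited table holds raw counts per gene symbol, not normalized by the authors as far as its whole numbers show. Per the labels, RNA was isolated with a micro kit and stranded, paired-end libraries were run on a NextSeq instrument. The submitters' processing notes name bcl2fastq 2.20, STAR, Bowtie and the build mm10; what each did, the counting tool, its strand setting and the annotation are not given in the sources used here. All columns matched a sample by title, with 0 left unmatched. Genes kept by filterByExpr (12981 of 24421) were scaled by TMM and fitted with edgeR 4.0.16 (R 4.3.3), robust quasi-likelihood, 4 group means, all 12 libraries. Tests in 7 comparisons were two-sided, with Benjamini-Hochberg adjustment over all genes tested and calls at 0.05. The biological coefficient of variation was 0.179, and the fit was tested on simulated data. Replicates were numbered in listing order, so numbers pair nothing across groups. The members and gene lists were chosen with earlier results of these data known. Named with a fold change were up to 3 enzymes per comparison and up to 2 genes per list with the smallest p, and the 5 genes most alike, 1 of which is not reported here. Other settings were DESeq2 1.42.0, limma 3.58.1 voom with quality weights, other scalings and filters, the title number as a block, only titles of 40, only the groups compared, and left-out libraries. Shared stretches of 50 and of 100 bases were counted on either strand against all other GENCODE M21 transcripts, and promoter windows came from RefSeq.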

Additional observations from a re-analysis of the deposited data

How the results depend on the processing

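No enzyme was called under any setting run. The number of genes called was 2 with DESeq2 for the genotype under isotype and under anti-TNF, 4 for the genotype averaged and 14 for the antibody averaged. With only titles of 40 it was 0 for the genotype under isotype and under anti-TNF and 1 for the antibody averaged; with only the groups compared it was 1 for the antibody in null/null and 0 for the genotype under anti-TNF. The enzymes' median log2 fold change with only titles of 40 was -0.22 for the antibody in wt/null and 0.13 for the genotype under anti-TNF. Leaving out 1 library at a time, that median ran from -0.25 to -0.0199 for the antibody in wt/null, from -0.17 to -0.11 in null/null, and from -0.23 to -0.11 averaged. For the genotype it ran from 0.02 to 0.14 under isotype, from -0.064 to 0.15 under anti-TNF, and from 0.02 to 0.12 averaged, and for the interaction from -0.15 to 0.037. The ends at -0.25, 0.15 and 0.037 were without wt/null anti-TNF replicate 3. In the same runs Pfkl for the genotype under isotype ranged from -0.00301, without null/null isotype replicate 3, to 0.173, and Pgam1 for the interaction from -0.306 to 0.0398, without wt/null anti-TNF replicate 3; these ends reversed the sign. Scaling by library totals alone moved the interaction from 8 of 10 enzymes below 0 to 6. The causes were not tested. No paired analysis was possible because the replicate numbers follow listing order and pair no samples. Eno1 had 31 to 74 counts per library against 787 or more for the others, so its counting error was wider.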
